A study of Mus musculus with 5 samples.

Results

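The genes of TGF-beta ligands, receptors and SMADs were followed in adult mouse cardiomyocytes that carried 4 reprogramming factors. The 10 genes were the 3 ligand genes Tgfb1, Tgfb2 and Tgfb3, the receptor genes Tgfbr1, Tgfbr2 and Tgfbr3, and the SMAD genes Smad2, Smad3, Smad6 and Smad7. The members were chosen by symbol, and 10 of 10 were found among the 12446 genes of the deposited table. Both groups were male C57BL/6 mice injected in the thoracic cavity at 8 weeks, and the age given for the samples is 12 to 14 weeks. OSKM-CMs (3 libraries, replicates 1, 2 and 3) came from mice given a mix of 4 vectors, AAV-cTnT-Oct4-His6 and AAV-cTnT-Sox2-Flag together with AAV-cTnT-Klf4-HA as well as AAV-cTnT-Myc-V5. Control-CMs (2 libraries, replicates 3 and 5) came from mice given AAV-cTnT-BFP, a vector for a blue fluorescent protein. In units of 1e10 vector genomes per gram of body weight, each of the 4 factor vectors was given at 2.5 and the BFP vector at 10, so the dose per vector differed between the groups. All vectors are adeno-associated virus with the cardiac troponin T promoter, which is active in cardiomyocytes, so other heart cells in a preparation were not the intended target of the factors. No label says whether each library was a separate mouse, so the p-values rest on the spread among these 5 libraries, which may be technical.

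TGF-beta ligands are secreted in a latent form and are set free by integrins and proteases. An active ligand binds the type II receptor (Tgfbr2), which recruits and switches on the type I receptor (Tgfbr1). The type III receptor (Tgfbr3, betaglycan) is a co-receptor that presents ligand, Tgfb2 above all. The activated type I receptor phosphorylates Smad2 and Smad3, which enter the nucleus with Smad4, while Smad6 and Smad7 are inhibitory SMADs. In the heart the pathway is best known for driving fibroblasts to make matrix, and cardiomyocytes themselves both secrete and respond to these ligands.

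Reads over the listed genes numbered 2691820 to 3861808 per library. All 10 cardiomyocyte markers on a list of 10 were read in every library. By the limma call defined at the end of this paragraph, 9 of them were lower in OSKM-CMs (background over all tested genes 14.3%). Their summed level was 18732 to 22221 in OSKM-CMs and 37361 to 40848 in controls. The mitochondrial share of reads was 9.76 to 11.1% in OSKM-CMs and 21.2 and 24.7% in controls. Levels are RPKM (reads per kilobase of gene, relative to library depth) divided by a trimmed-mean (TMM) factor per library, and are called scaled RPKM. Changes are log2 fold changes of OSKM-CMs over Control-CMs on the scale log2(scaled RPKM + 1), which understates the change of genes with low values. A gene is called changed where limma gave a Benjamini-Hochberg adjusted p below 0.05 over 10915 genes, those whose RPKM averaged 1 or more. All 10 members met that minimum, Tgfb1 only through the controls and Tgfb2 only through OSKM-CMs.

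Of the 10 members, Tgfb3 was higher in OSKM-CMs, Tgfbr3 and Tgfb1 were lower, and 7 did not pass. Among all tested genes 15.9% were higher and 14.3% lower, or 30.2% in either direction, so 3 of 10 members is near the background. The groups did not overlap for 6 members, against 57.9% of all tested genes: 4 members lay higher (background 30%) and 2 lower (background 27.8%). By the FDR of the authors' deposited table, 2 members passed as higher (background 16.4%) and 2 as lower (background 15.4%). The median log2 fold change was 0.41 over the members and 0.02 over all tested genes. With libraries scaled to their totals alone, the median over all genes was 0.36 and that over the members 0.72, with 6 members higher (background 36.5%) and 0 lower (background 5.96%).

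**Figure D1:**
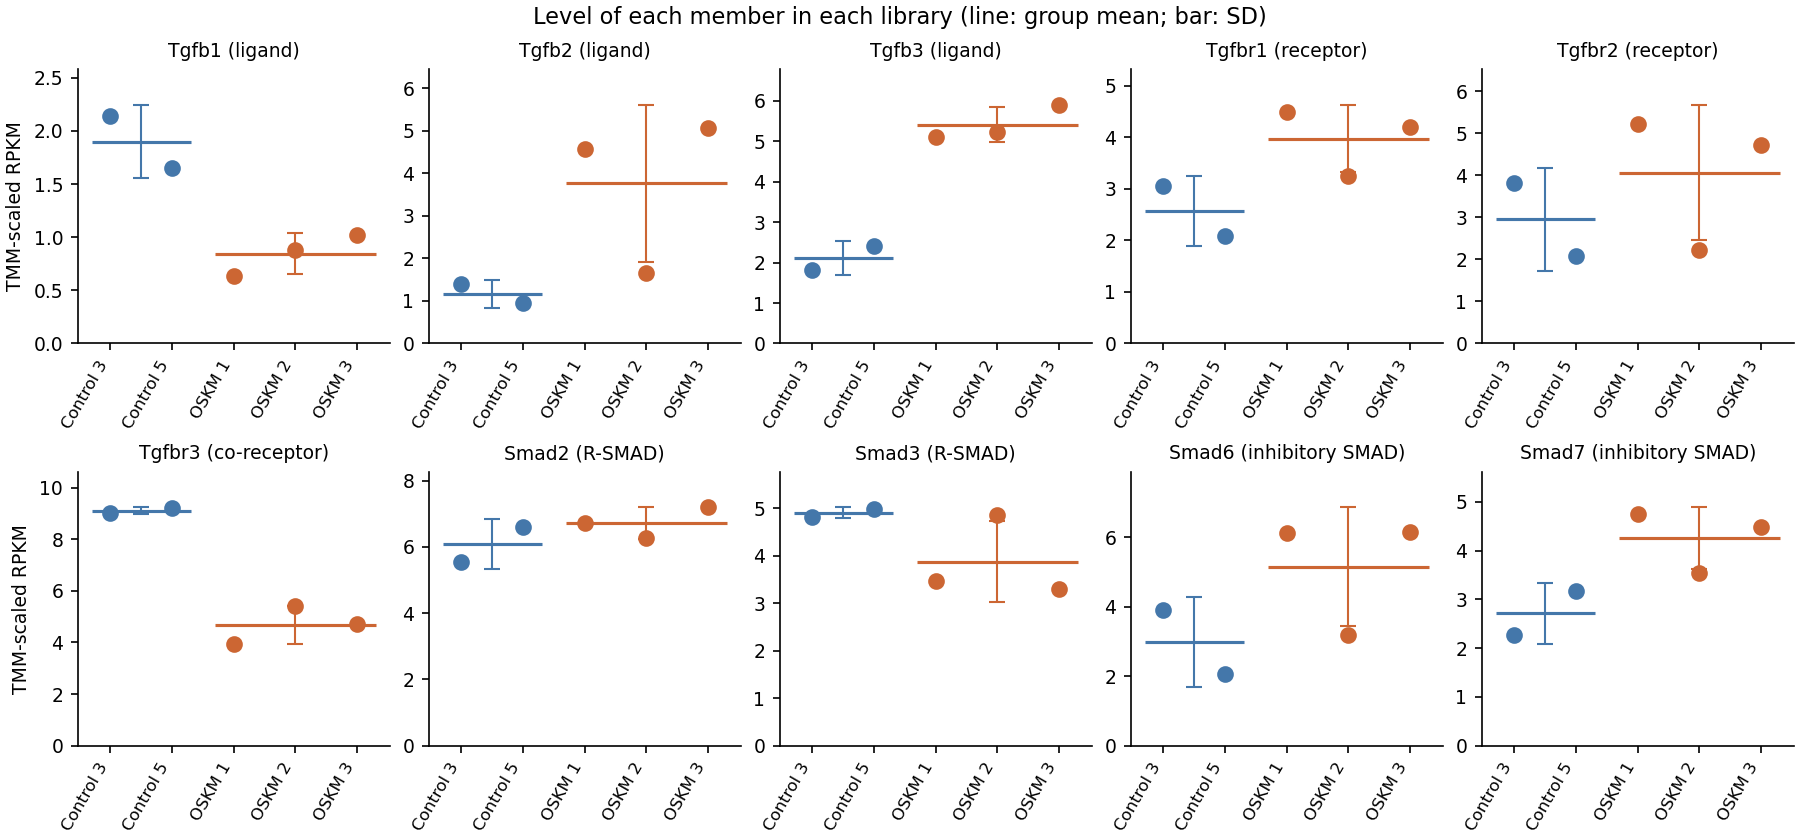
Scaled RPKM of the 10 members in the 2 control and 3 OSKM libraries, 1 point per library, with a line at the group mean and a bar for the SD. Tgfb3 lies at 5.10 or above in the 3 OSKM libraries and at 2.40 or below in controls, Tgfbr3 lies at 9.01 and 9.20 in controls and at 5.40 or below in OSKM-CMs, and OSKM replicate 2 is the lowest OSKM library for Tgfb2, Tgfbr2 and Smad6.

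The ligand genes did not move together. Tgfb3 (ENSMUSG00000021253.6), the isoform known from palate closure and heart development, was covered by 53, 55 and 61 reads in replicates 1, 2 and 3 of OSKM-CMs, against 19 and 25 in replicates 3 and 5 of the controls. Its level was 5.10, 5.22 and 5.89 scaled RPKM in OSKM-CMs and 1.81 and 2.40 in controls. Every OSKM library was above every control library, and the OSKM libraries lay close to each other. The mean rose 2.57-fold, from 2.11 ± 0.420 (SD, n = 2) to 5.40 ± 0.428 (SD, n = 3), with a log2 fold change of 1.05 (SE 0.17, limma adjusted p = 0.00343).

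Tgfb2 (ENSMUSG00000039239.8), the isoform needed for outflow tract and valve formation, was covered by 68, 25 and 75 OSKM reads and by 21 and 14 control reads. Its level was 4.57, 1.66 and 5.06 scaled RPKM in OSKM-CMs and 1.40 and 0.940 in controls. OSKM replicates 1 and 3 stood well above the controls, whereas OSKM replicate 2 was just above them. The mean was 3.76 ± 1.84 (SD, n = 3) against 1.17 ± 0.323 (SD, n = 2), and the log2 fold change of 1.05 (SE 0.36) did not pass (limma adjusted p = 0.0684). Without OSKM replicate 2 it did, at 1.43 (limma adjusted p = 0.00426). Tgfb2 met the minimum level only through OSKM-CMs, with a deposited RPKM of 1.23 and 0.750 in controls, so this p is not taken as support. In the authors' deposited table Tgfb2 had a log2 fold change of 1.67 and an FDR of 0.00325.

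Tgfb1 (ENSMUSG00000002603.9), the isoform most studied in fibrosis, was read little, with 5, 7 and 8 OSKM reads and 17 and 13 control reads. Its level was 0.637, 0.880 and 1.02 scaled RPKM in OSKM-CMs and 2.14 and 1.65 in controls. All 3 OSKM libraries were below both controls. Tgfb1 met the minimum level only through the controls, at a deposited RPKM of 1.89 and 1.32 against 0.707, 0.987 and 1.17 in OSKM-CMs. The p of its change is therefore not taken as support. The log2 fold change was -0.65 (SE 0.20, limma adjusted p = 0.0459), and from pooled reads the ratio of OSKM-CMs over controls was 0.446, with a 95% exact interval of 0.240 to 0.811 that covers counting error only. The call rests on few reads and was lost when any 1 library was left out (limma adjusted p from 0.0735 to 0.185).

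The upstream sequences of Tgfb2 and Tgfb1 are shown because their means differed from controls in opposite directions. Both runs are the 100 bases before the annotated start, 5′ to 3′ on the gene's strand, from RefSeq on GRCm38.p6, a build other than the mm9 of the submitters' processing notes. For Tgfb2 they lie at chr1:186705990-186706089 (minus strand) and for Tgfb1 at chr7:25686902-25687001 (plus strand). Capitals mark CACGTG, the E-box that Myc binds with its partner Max, and the TATA box TATAAA in Tgfb2. In Tgfb1 they mark GGGTGG, the reverse strand of CCACCC, a core found in binding sites of Krüppel-like factors such as Klf4.
Tgfb2: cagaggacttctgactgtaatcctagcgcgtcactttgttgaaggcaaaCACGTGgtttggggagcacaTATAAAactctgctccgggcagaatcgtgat
Tgfb1: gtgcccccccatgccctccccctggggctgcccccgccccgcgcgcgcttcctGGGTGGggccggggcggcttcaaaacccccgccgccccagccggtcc
The table of promoters held 6 of the 10 members, in 7 entries, and 250 upstream bases of each were searched on both strands for 7 motifs. The E-box began at position -51 of Tgfb2, and 6.02% of all 32851 entries held one. TATAAA began at -31 of Tgfb2 (12.4% of entries). CCACCC was found in Tgfb1 at -47 and in Tgfbr2 at -149 (28.1% of entries). The octamer ATGCAAAT of Oct4, the SMAD palindrome GTCTAGAC, the cyclic AMP element TGACGTCA and the AP-1 site TGANTCA were in none of the 7 entries (1.60%, 0.167%, 1.55% and 6.75% of all entries). These are matches of letters only, and no binding was measured.

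Within a library, the make-up of the ligand transcripts can be given free of scaling between libraries. Tgfb1 made up 6.18%, 11.3% and 8.54% of the summed RPKM of the 3 ligand genes in OSKM-CMs and 40.1% and 33.1% in controls. Its share was lower in every OSKM library than in either control. The Tgfb3 to Tgfb1 ratio was 8.01, 5.94 and 5.76 in OSKM-CMs against 0.844 and 1.45 in controls (exact permutation test over 5 libraries, two-sided p = 0.1, the smallest this design allows; adjusted p = 0.525 over 7 ratios). The Tgfb2 to Tgfb1 ratio was 7.18, 1.89 and 4.95 against 0.652 and 0.569, again without overlap (exact permutation p = 0.2, adjusted p = 0.525). The Tgfb2 to Tgfb3 ratio overlapped between the groups, at 0.897, 0.318 and 0.859 against 0.772 and 0.391 (exact permutation p = 0.8). The small number of Tgfb1 reads sets the precision of both ratios to Tgfb1. The 3 ligand genes together came to 10.3, 7.76 and 12.0 scaled RPKM in OSKM-CMs and 5.35 and 5.0 in controls, with every OSKM library above both controls.

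**Figure D2:**
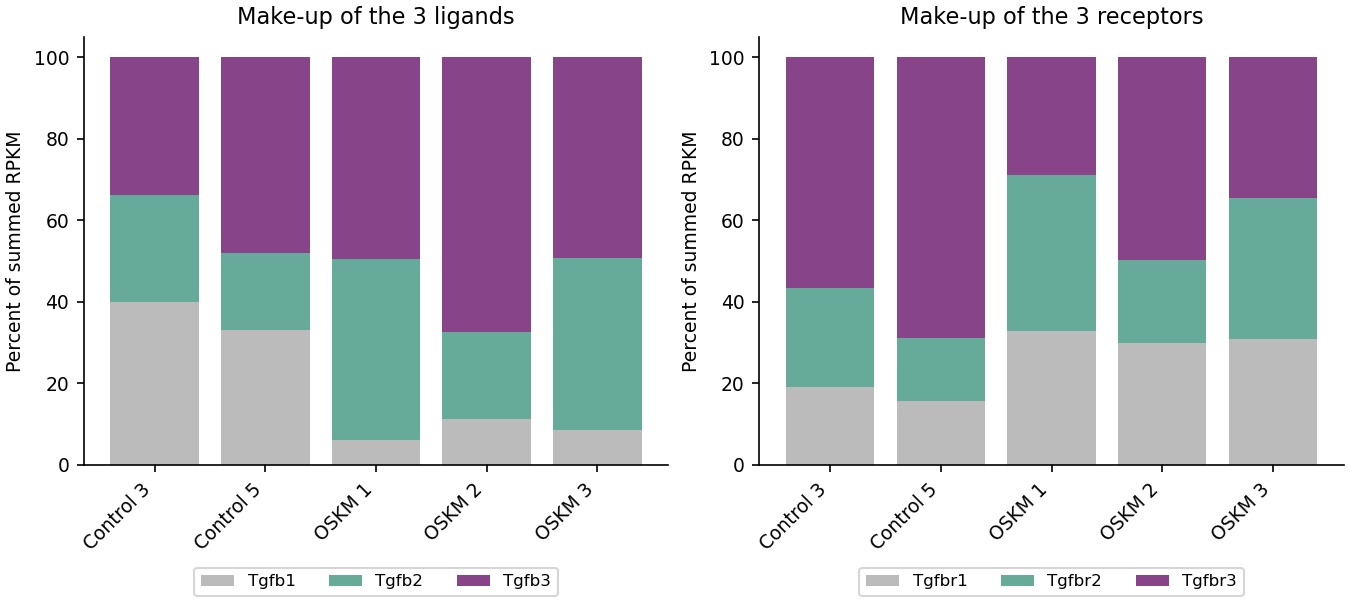
Percent of the summed RPKM of the 3 ligand genes (left) and the 3 receptor genes (right) that each gene made up, 1 bar per library. Tgfb1 makes up 40.1% and 33.1% of ligand RPKM in controls and at most 11.3% in OSKM-CMs, and Tgfbr3 makes up 56.7% and 68.8% of receptor RPKM in controls and at most 49.7% in OSKM-CMs.

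Among the receptors, the co-receptor gene was lower. Tgfbr3 (ENSMUSG00000029287.8) was covered by 79, 110 and 94 OSKM reads and by 183 and 185 control reads. Its level was 3.93, 5.40 and 4.70 scaled RPKM in OSKM-CMs and 9.01 and 9.20 in controls. The controls were almost equal and every OSKM library was far below them. The mean was 9.11 ± 0.130 (SD, n = 2) in controls and 4.68 ± 0.735 (SD, n = 3) in OSKM-CMs, 1.95-fold lower (log2 fold change -0.84, SE 0.16, limma adjusted p = 0.00729). With library totals alone it did not pass (log2 fold change -0.48, limma adjusted p = 0.0555), beside a median of 0.36 for all genes.

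The genes of the signalling receptors did not pass. Tgfbr1 (ENSMUSG00000007613.9), the type I receptor kinase, was at 4.48, 3.24 and 4.20 scaled RPKM in OSKM-CMs and 3.06 and 2.09 in controls. The groups did not overlap, but OSKM replicate 2 lay close to Control-CMs replicate 3 (log2 fold change 0.48, SE 0.20, limma adjusted p = 0.107). Tgfbr2 (ENSMUSG00000032440.5), the type II receptor kinase, was at 5.23, 2.22 and 4.72 in OSKM-CMs and 3.82 and 2.09 in controls. Its groups overlapped, with OSKM replicate 2 beside Control-CMs replicate 5 (log2 fold change 0.33, 95% interval -0.45 to 1.12, limma adjusted p = 0.483). Tgfbr3 made up 28.8%, 49.7% and 34.5% of the summed receptor RPKM in OSKM-CMs against 56.7% and 68.8% in controls. Tgfbr1 made up 32.9%, 29.9% and 30.8% against 19.2% and 15.6%, with no overlap in either share. The sum of the 3 receptor genes was 13.6, 10.9 and 13.6 scaled RPKM in OSKM-CMs and 15.9 and 13.4 in controls, and these overlapped.

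None of the 4 SMAD members passed. Smad2 (ENSMUSG00000024563.9), a receptor-regulated SMAD, was at 6.71, 6.26 and 7.20 scaled RPKM in OSKM-CMs and 5.55 and 6.61 in controls. The groups overlapped (log2 fold change 0.13, 95% interval -0.22 to 0.47, limma adjusted p = 0.548). Smad3 (ENSMUSG00000032402.6), its partner and the one most tied to matrix genes, was at 3.47, 4.87 and 3.30 in OSKM-CMs and 4.83 and 4.99 in controls. OSKM replicate 2 lay between the controls and the other OSKM libraries were below them (log2 fold change -0.29, 95% interval -0.72 to 0.14, limma adjusted p = 0.275). Its sign turned with library totals alone (0.05, limma adjusted p = 0.852).

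The inhibitory SMAD genes had higher means in OSKM-CMs without passing. Smad7 (ENSMUSG00000025880.5), which blocks the type I receptor and is itself induced by TGF-beta, was at 4.75, 3.55 and 4.48 scaled RPKM in OSKM-CMs and 2.28 and 3.16 in controls. All 3 OSKM libraries were above both controls (log2 fold change 0.50, SE 0.19, limma adjusted p = 0.0829). Smad6 (ENSMUSG00000036867.5), which acts mainly on BMP signals, was at 6.12, 3.17 and 6.15 in OSKM-CMs and 3.90 and 2.07 in controls. OSKM replicate 2 fell between the controls (log2 fold change 0.62, SE 0.31, limma adjusted p = 0.168). Without that library Smad6 passed (0.88, limma adjusted p = 0.0430). With library totals alone Smad2, Smad6 and Smad7 passed as higher, as did Tgfb2, Tgfb3 and Tgfbr1.

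**Figure D3:**
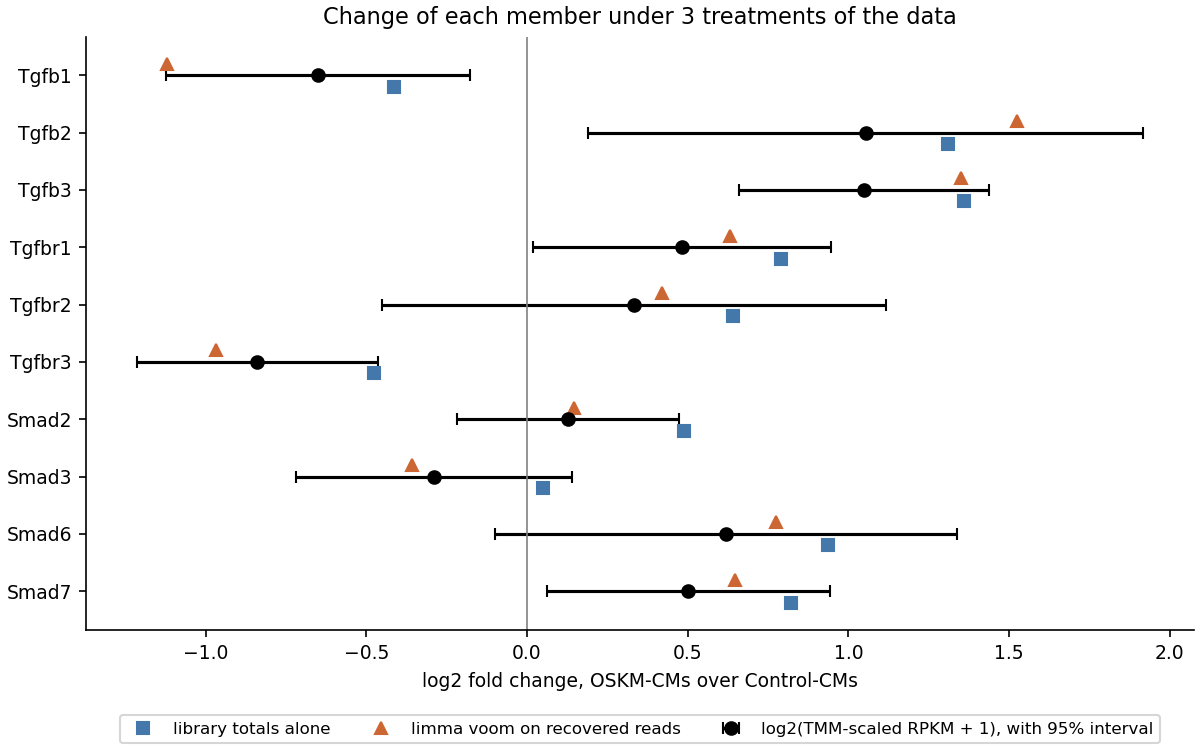
Log2 fold change of each member in OSKM-CMs over controls (horizontal axis), as log2 of TMM-scaled RPKM plus 1 with its 95% interval (black circles), with library totals alone (blue squares) and from limma voom on recovered reads (orange triangles). Tgfb1 and Tgfbr3 are left of 0 in all 3, Smad3 is on either side of 0, and the other 7 members are right of 0.

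Because RPKM is per length, levels can also be ordered between genes. In controls the highest member was Tgfbr3 at 9.11 scaled RPKM, then Smad2 at 6.08 and Smad3 at 4.91, each clear of the next. Below them Smad6, Tgfbr2, Smad7, Tgfbr1, Tgfb3 and Tgfb1, from 2.99 to 1.90, overlapped with their neighbours in that order, and Tgfb2 was last at 1.17. In OSKM-CMs Smad2 was highest at 6.72. From Tgfb3 at 5.40 to Tgfb2 at 3.76 each neighbour in the order overlapped with the next, and Tgfb1 was last at 0.846.

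Some members varied between replicates in the same order. Tgfb2, Tgfbr1, Tgfbr2 and Smad6 were lowest among OSKM libraries in replicate 2 and lower in Control-CMs replicate 5 than in replicate 3, as were 17.9% of all tested genes. Summed fibroblast, macrophage and endothelial markers ran in that order too. The epicardial sum did not, and the smooth muscle sum did not while Acta2 was included. The 5 fibroblast markers that are not on the TGF-beta target list used below were Dcn, Lum, Pdgfra, Gsn and Dpt. They summed to 149, 70.2 and 118 scaled RPKM in OSKM-CMs replicates 1, 2 and 3 and to 140 and 60.4 in Control-CMs replicates 3 and 5. Of these 5 markers 0 passed in either direction. The other 4 fibroblast markers (Col1a1, Col1a2, Col3a1 and Postn) were all higher (background 15.9%). Col1a1 met the minimum level only through OSKM-CMs, so its call is not taken as support. The Postn call was lost with limma voom on recovered reads (adjusted p = 0.0585). All 9 fibroblast markers found, of 10 listed, summed to 260, 123 and 248 in OSKM-CMs and to 154 and 71.2 in controls. Macrophage markers (8 of 10 listed) summed to 26.3, 9.86 and 46.3 in OSKM-CMs and 59.0 and 15.0 in controls, with Ptprc at 0 reads in OSKM replicate 2. Endothelial markers (10 of 10 listed) summed to 88.9, 41.8 and 62.1 in OSKM-CMs and 124.5 and 99.5 in controls. Of the 10 tested, 2 were lower (Kdr and Egfl7, background 14.3%), 0 were higher and 8 did not pass. Smooth muscle and pericyte markers (10 of 10 listed) summed to 274, 409 and 339 in OSKM-CMs and 233 and 238 in controls, highest in OSKM replicate 2. Much of that sum was Acta2, which is also on the TGF-beta target list. Acta2 was at 142, 319 and 215 in OSKM-CMs and 45.9 and 69.4 in controls. Without Acta2, the sum of the other smooth muscle and pericyte markers did run in the order described. It was lowest in OSKM replicate 2 and lower in Control-CMs replicate 5 than in replicate 3. It was also lower in every OSKM library than in either control. Single markers such as Myh11 and Cspg4 were not lowest in OSKM replicate 2 among the OSKM libraries. Epicardial and mesothelial markers (5 of 10 listed) summed to 2.94, 3.12 and 6.92 in OSKM-CMs and 4.82 and 13.9 in controls. The part of these cell types in the results for Tgfb2, Tgfbr1, Tgfbr2 and Smad6 was not tested. Fewer cells of a type and less RNA per cell cannot be told apart in bulk libraries. Tgfb3 did not follow this order, being lowest in OSKM replicate 1 among the OSKM libraries and higher in Control-CMs replicate 5 than in replicate 3. Tgfbr3 and Smad3 ran the other way, with their highest OSKM value in replicate 2.

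**Figure D4:**
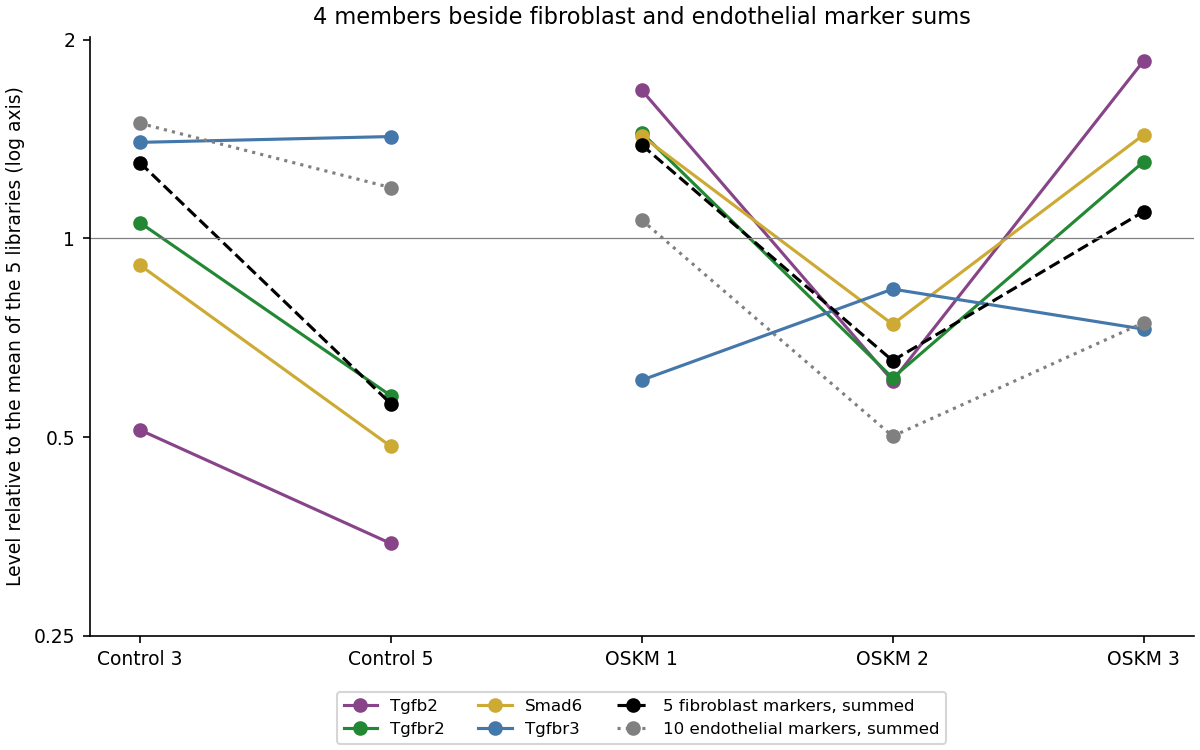
Level of Tgfb2, Tgfbr2, Smad6 and Tgfbr3 and the summed level of 5 fibroblast and 10 endothelial markers in each library, each divided by its own mean over the 5 libraries (log axis). Tgfb2, Tgfbr2, Smad6 and the fibroblast sum dip in Control 5 and OSKM 2, where Tgfbr3 is the higher of its controls and the highest of its OSKM libraries.

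Patterns most like that of Tgfb3, the called member with the largest change, were sought as the smallest root mean square difference of centred log2 values over the 5 libraries. They belonged to 2610002J02Rik (0.0338), Ckap4 (0.0546), a membrane protein of the endoplasmic reticulum, and Gm15991 (0.0557), beside an SD of 0.586 for Tgfb3 itself. For Tgfbr2, looked up after its values were seen, they were Apoe (0.0831), Colec12 (0.107) and Mgst1 (0.107), beside an SD of 0.468. With 5 libraries in 2 groups these are descriptions of likeness only.

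Lists of related genes place the members in the wider family. Of 155 other genes listed, 103 were in the table and 92 were tested. Of these, 26 were higher (background 15.9%) and 9 lower (background 14.3%), with a median log2 fold change of 0.20. Among the higher genes, Fst, Fstl3, Tgfbi, Col1a1, Fn1 and Lox met the minimum level only through OSKM-CMs. The count of higher genes therefore describes those tested. With library totals alone 46 were higher (background 36.5%) and 3 lower (background 5.96%), with a median of 0.53 beside 0.36 for all genes. The same backgrounds apply to the counts of each list below.

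Genes that hold TGF-beta latent or set it free were mixed, with 3 higher and 1 lower of 14 tested (median 0.56). Scaled to library totals alone, 6 were higher and 1 lower, and 0 were higher without OSKM replicate 1. Itgb6, the integrin subunit that frees Tgfb1 and Tgfb3 from latency, fell 3.29-fold, from 10.8 ± 1.83 (SD, n = 2) to 3.28 ± 1.11 scaled RPKM (SD, n = 3; limma adjusted p = 0.00307). It was covered by 52, 100 and 64 OSKM reads and by 267 and 208 control reads, without overlap. Its partner subunit Itgav, named after its values were seen, rose by 0.50 on the log2 scale (limma adjusted p = 0.0467). That call was lost without any 1 library. It was also lost with median-of-ratios size factors (limma adjusted p = 0.0501) and with no filter on low values (limma adjusted p = 0.0505). Ltbp1, a latent TGF-beta binding protein, rose 1.78-fold to 11.5 ± 1.69 scaled RPKM (limma adjusted p = 0.0134), a call lost without OSKM replicate 1 or Control-CMs replicate 3. Fbn1, the fibrillin to which such proteins bind, rose 3.42-fold to 8.14 ± 3.15 (limma adjusted p = 0.0212), a call lost with limma voom on recovered reads and without OSKM replicate 1, OSKM replicate 3 or Control-CMs replicate 5. The proteoglycan Dcn was at 52.8 scaled RPKM in OSKM-CMs and 31.4 in controls and the integrin subunit Itgb5 at 20.5 and 25.9, and neither passed.

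Of the secreted antagonists, 4 were higher and 0 lower among 5 tested. Fst and Fstl3 met the minimum level only through OSKM-CMs, so this count describes those tested. With no filter the median was 1.41 over 6 genes, and limma voom on recovered reads called 2 of 6 higher. Fst, follistatin, which binds activins, was covered by 104, 95 and 87 OSKM reads and by 0 reads in both controls. Against a floor of 3 reads summed over both controls, OSKM-CMs were at least 63.7-fold higher. Because the gene was tested only through the group where it is high, its p is not given as support. Nbl1, a BMP antagonist, rose 5.38-fold to 9.01 ± 2.24 scaled RPKM (limma adjusted p = 0.00128) and Fstl1 rose 5.21-fold to 18.7 ± 7.26 (limma adjusted p = 0.00894; 0.0606 with voom). Fstl3, an activin-binding protein named after its values were seen, was at 1.90 scaled RPKM in OSKM-CMs and 0.531 in controls (log2 fold change 0.92). Its p is not given as support for the same reason as that of Fst. The Fstl3 call was lost with voom and without OSKM replicate 2, OSKM replicate 3 or Control-CMs replicate 3. Twsg1, a BMP-binding protein, was at 20.9 scaled RPKM in OSKM-CMs and 24.7 in controls and did not pass.

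Of the other receptors and co-receptors of the family, 3 fell and 0 rose among 12 tested (median -0.41). Hfe2, hemojuvelin, a BMP co-receptor of muscle and liver, was at 54.3 ± 9.04 scaled RPKM in OSKM-CMs and 120.4 ± 0.786 in controls, a fall with log2 fold change -1.15 and SE 0.15 (limma adjusted p = 0.00148). Its relative Rgmb fell by 0.89 on the log2 scale (limma adjusted p = 0.00832). The type I receptor gene Bmpr1a fell by 0.46 (limma adjusted p = 0.0406), a call lost without any 1 of the 5 libraries and with library totals alone (-0.0552, limma adjusted p = 0.803). Bmpr2 was at 16.8 scaled RPKM in OSKM-CMs and 13.5 in controls and Acvr2a at 8.24 and 8.40, and neither passed. Smad4, the common partner of the receptor-regulated SMADs, was at 10.2 ± 0.604 scaled RPKM in OSKM-CMs and 14.9 ± 0.223 in controls, a fall with log2 fold change -0.51 and SE 0.13 (limma adjusted p = 0.0208). That call held without OSKM replicate 2 and was lost without any other single library (limma adjusted p up to 0.0849). Smad1 and Smad5, which carry BMP signals, had log2 fold changes of 0.25 (limma adjusted p = 0.318) and -0.0262 (limma adjusted p = 0.906). With library totals alone, Smad4 did not pass and 2 of the receptor list were higher and 2 lower. Of 3 tested activin, BMP and GDF ligand genes, Bmp1, which encodes a procollagen protease in spite of its name, rose by 0.52 (limma adjusted p = 0.0456), a call held without OSKM replicate 2 and lost without any other single library. Bmp6 was at 1.33 scaled RPKM in OSKM-CMs and 1.67 in controls and Gdf15 at 1.28 and 0.700, and neither passed.

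Among intracellular regulators 1 was higher and 3 lower of 26 tested (median 0.05). Scaled to library totals alone, 11 were higher and 0 lower, and Stub1, Crebbp and Wwp1 did not pass (limma adjusted p = 0.0873, 0.583 and 0.685). Fkbp1a, the FK506-binding protein that holds type I receptors inactive, rose by 0.65 on the log2 scale (limma adjusted p = 0.0157). The ubiquitin ligase gene Stub1 fell by 0.87 (limma adjusted p = 0.0138), Crebbp, a co-activator of SMADs, by 0.47 (limma adjusted p = 0.0491) and the ligase gene Wwp1, named after its values were seen, by 0.47 (limma adjusted p = 0.0222). The Crebbp call was lost without any 1 library, that of Wwp1 without any but OSKM replicate 2, that of Stub1 without Control-CMs replicate 3, and that of Fkbp1a without OSKM replicate 3 or either control. Strap, which binds receptors and Smad7, was at 46.3 scaled RPKM in OSKM-CMs and 36.7 in controls and the deubiquitinase gene Usp15 at 37.2 and 42.6, and neither passed.

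Genes known as targets of TGF-beta were mostly higher, with 16 higher, 1 lower and 9 not passing of 26 tested (median 1.10). The background over all tested genes is 15.9% higher. Members near 0 in controls met the minimum level only through OSKM-CMs, so this count describes those tested. Without Control-CMs replicate 5 the count was 10 higher and 0 lower, and with voom 12 of 28 were higher. Timp1, a protease inhibitor, rose 44.3-fold to 89.0 ± 28.0 scaled RPKM, Postn, periostin, 32.9-fold to 42.8 ± 20.3, and Eln, elastin, 8.90-fold to 13.5 ± 6.37 (limma adjusted p = 0.000322, 0.00192 and 0.0170). With limma voom the calls of Postn (adjusted p = 0.0585) and Eln (adjusted p = 0.130) were lost, and that of Eln also without Control-CMs replicate 5 (limma adjusted p = 0.0751). Col1a1, Col1a2, Col3a1 and Postn are on the fibroblast list too, and without these 4 the count was 12 higher and 1 lower of 22, with a median of 0.92. The sum of the other fibroblast markers, given above, overlapped between the groups. Their part in the rise of matrix genes was not tested.

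The feedback genes Skil and Pmepa1, looked at after their values were seen, had log2 fold changes of 0.20 (limma adjusted p = 0.389) and 0.05 (limma adjusted p = 0.865). N-cadherin (Cdh2) was at 41.5 scaled RPKM in OSKM-CMs and 41.7 in controls and the AP-1 gene Junb at 22.4 and 39.5, and neither passed. Among BMP targets 1 of 7 tested was higher. The count was 3 with library totals alone and without Control-CMs replicate 3, and 0 without OSKM replicate 1, OSKM replicate 3 or Control-CMs replicate 5. Id3, an inhibitor of helix-loop-helix factors, rose 2.03-fold to 15.8 ± 3.23 scaled RPKM (limma adjusted p = 0.0191), a call lost without OSKM replicate 1, OSKM replicate 3 or Control-CMs replicate 5. Its relatives Id1 and Id2 were at 7.64 and 6.23 in OSKM-CMs and 8.36 and 3.44 in controls and did not pass.

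**Figure D5:**
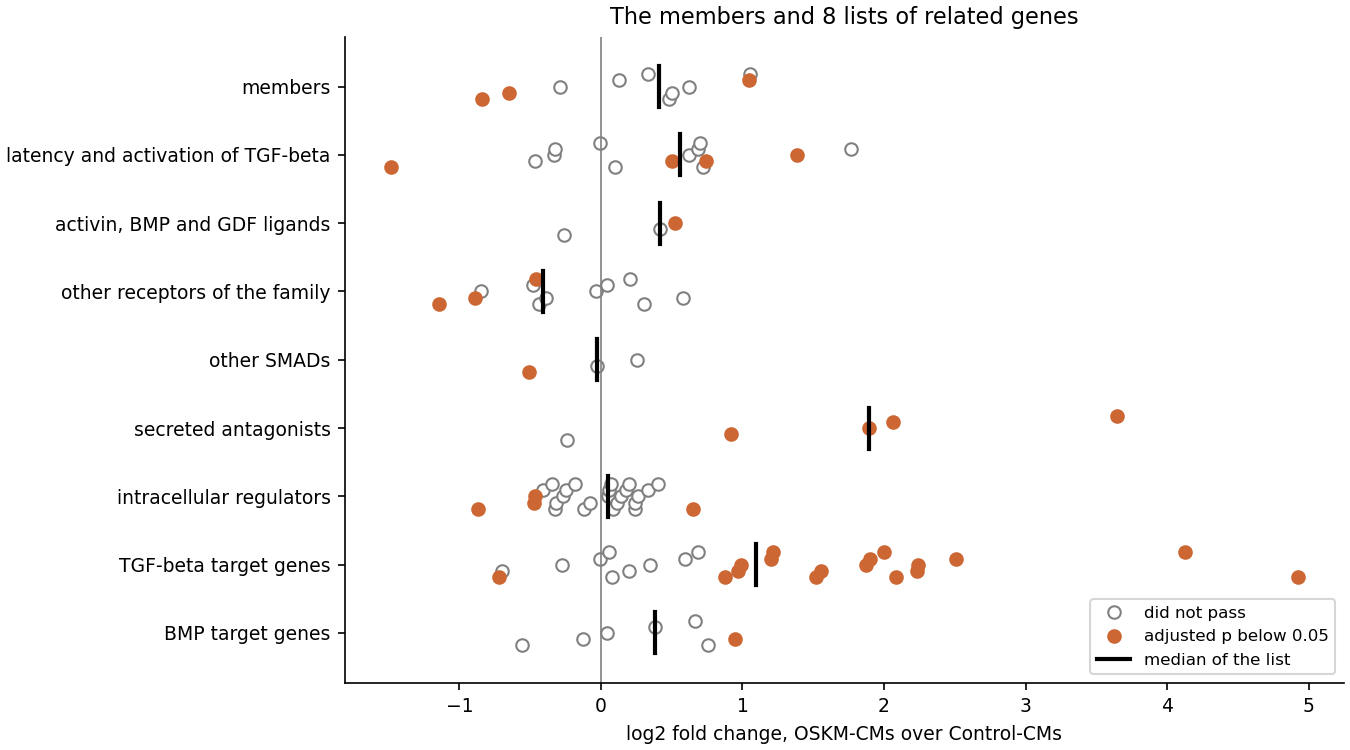
Log2 fold change in OSKM-CMs over controls (horizontal axis) of each tested gene of the members and of 8 related lists, 1 circle per gene, filled where the limma adjusted p was below 0.05, with a bar at the median of the list. The secreted antagonists have a median of 1.90 and the TGF-beta target genes of 1.10 among those tested, and the other receptors have a median of -0.41.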

How the data were processed

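RNA of 5 libraries was compared, 3 OSKM-CMs and 2 Control-CMs. Per the submitters' processing notes, the tools were STAR 2.5.3, HTSeq, CASAVA 1.8.2, Trimmomatic and FastQC, with build mm9; the annotation and strand setting are not given in the sources used here. The authors deposited RPKM per library, a unit read off the steps of the values, as the file names none. The deposited columns also held the authors' log2 fold change and average log2 abundance, a likelihood ratio score, a p-value and an FDR. Whole reads were recovered from the RPKM steps for all 12446 genes (within 0.0001 reads), and a common factor was settled from the average abundance for 440. All listed genes reach 1 CPM in 2 or more libraries. A gene with 0 reads has a floor of 3 reads, 0.777 to 1.11 CPM per library, for counting error only.

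RPKM were divided by TMM factors (30% and 5% trimmed) from those reads. Genes whose RPKM averaged 1 or more were fitted as log2(value + 1) with limma 3.58.1 in R 4.3.3, using empirical Bayes that was robust and followed abundance, two-sided, with Benjamini-Hochberg adjustment. On simulated data (10888 genes) it found 20.9% of 1.5-fold, 69.7% of 2-fold and 96.9% of 4-fold changes, and it called 9 unchanged genes. The genes changed there were above a read minimum that Tgfb1 does not reach, and all genes shared a dispersion of 0.00271. These rates therefore do not cover Tgfb1 or genes that vary more between replicates, such as Tgfb2, Tgfbr2 and Smad6. Alternatives changed the scaling, added value, filter, test and libraries. Members and lists were chosen with earlier results of these data known. Named list genes were the up to 3 with the largest called change and the up to 2 most abundant that did not pass. Among the marker lists, smooth muscle and pericyte markers had 3 higher (background 15.9%) and 1 lower (background 14.3%) of 10 tested. Acta2, Pdgfrb and Cspg4 were higher and Abcc9 was lower. Epicardial and mesothelial markers had 0 higher and 0 lower of 3 tested. A result on 1 gene of the target list is not reported here.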

Additional observations from a re-analysis of the deposited data

How the results depend on the processing

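Tgfb3 passed as higher in 12 of 12 alternatives (log2 fold change 0.55 to 1.36) and Tgfbr3 as lower in 12 of 13 (-0.97 to -0.48), all but library totals alone. Tgfb1 passed in 4 of 12 (adjusted p 0.0260 to 0.185). Library totals alone gave 3985 genes higher and 650 lower, 6 members higher and 0 lower, and 46 listed genes higher and 3 lower. There was 1 member lower with 0.1 added before logs and with limma voom on recovered reads (Tgfbr3 in both). A minimum mean RPKM of 5 left 2 members tested, 0 higher and 1 lower. Leaving out 1 library gave 1169 to 1596 genes higher and 967 to 1484 lower, 1 to 3 members higher and 1 lower, and 15 to 28 listed genes higher and 4 to 7 lower. The 967 came without Control-CMs replicate 5, the 3 members without OSKM replicate 2, and 15 or 16 listed genes without Control-CMs replicate 5, OSKM replicate 1 or OSKM replicate 3.

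With library totals alone the sign of the log2 fold change turned for Smad3 (0.0507), Itgb5 (0.0755), Acvr2a (0.34), Smad5 (0.35), Twsg1 (0.16), Usp15 (0.22), Cdh2 (0.40) and Id1 (0.25). Leaving out 1 library gave both signs for Acvr2a (-0.0861 to 0.0698), Cdh2 (-0.0441 to 0.0274), Pmepa1 (-0.0727 to 0.19), Bmp6 (-0.52 to 0.0445) and Smad5 (-0.0937 to 0.0413). None of these 10 genes passed in the values reported above. The difference in log2 ratio took both signs for Tgfb2 to Tgfb3 (-0.30 to 0.68, and -0.0502 with 1 added), Tgfbr1 to Tgfbr2 (-0.0348 to 0.37) and Smad6 to Smad7 (-0.56 to 0.83). The cause was not tested.

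Count tests by edgeR and DESeq2, planned as alternatives, were not run. The files hold RPKM, and limma voom on the recovered reads was used in their place. No paired analysis was possible because replicate number 3 alone occurs in both groups. Depth limits Tgfb1 most, with 20 reads over OSKM-CMs and 30 over controls.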
